A study of Saccharomyces cerevisiae with 18 samples.

Results

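The response of Saccharomyces cerevisiae to China8, an aqueous extract of horsetail (Equisetum arvense), was measured in 8 of the 18 arrays of the series. The 4 China8 arrays came from log-phase cultures of the diploid strain BY4743 that received dried China8 extract at 2.5 mg/mL for 20 min. The 4 control arrays came from cultures of the same strain that received the vehicle alone and are labelled none. Every culture carried the strain's homozygous his3Δ1, leu2Δ0 and ura3Δ0 alleles and its heterozygous met15Δ0 and lys2Δ0 alleles, and grew in minimal medium with added uracil. The arrays were chosen by their labels and no expression value was used. The sample titles place 2 China8 and 2 control arrays on each of 2 dates, called the earlier and the later date here. The titles do not say whether a date is that of culture, RNA extraction or hybridization. The study describes biological replicates, so the spread between arrays of 1 group and date includes that between cultures. A single preparation, dose and time were examined, so no dose series, time course or second lot of China8 enters the values. The other 10 arrays, 2 each of the extracts USA2, USA6, USA7, Europe11 and India13, were all of the later date and serve for 1 comparison near the end.

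Horsetail is a silica-rich plant with abundant phenolic acids and flavonoids. Yeast meets foreign small molecules with membrane pumps that export them and with reductases that act on them, under the control of zinc-cluster transcription factors such as Pdr1, Pdr3 and Yrr1. Genes of ribosome assembly and genes of the general stress response usually move in opposite directions when growth conditions change. The genes of phospholipid synthesis form a further unit, induced by the Ino2-Ino4 factor and repressed through Opi1 when inositol is plentiful.

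Transcript levels are given as log2 signals of probe sets, each a group of short probes that read 1 transcript near its 3′ end, and a difference of 1 is a 2-fold change. Values are listed with both arrays of the earlier date before both arrays of the later date, which also fixes the replicate numbers 1 to 4. Of 5900 probe sets, 137 Affymetrix controls were set aside and 5763 were tested with limma, with the date as a block. The threshold for a call was 0.05 after Benjamini-Hochberg adjustment over all 5763. China8 raised 1034 probe sets (17.9% of those tested) and lowered 1048 (18.2%), and the median difference over all of them was 0.00. The counts of calls between China8 and control in the gene lists below are to be read against these 2 shares. The change exceeded 2-fold for 121 of the raised and 123 of the lowered probe sets. The 4 China8 arrays all lay on one side of the 4 control arrays for 30.3% of the probe sets tested, and for 813 of those called higher and 779 of those called lower. The spread of the arrays gives the scale of these numbers. The SD of the differences between 2 arrays over all probe sets was 0.19 to 0.30 for arrays of 1 group and date, 0.30 to 0.44 for arrays of 1 group on different dates, and 0.38 to 0.66 between a China8 and a control array of 1 date.

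The labelled strain could be checked against its transcripts. LEU2, which is deleted, had signals of 3.31 to 3.79 in China8 cultures and 3.38 to 3.73 in control cultures, and the deleted URA3 had 3.12 to 3.34 in China8 cultures and 3.18 to 3.28 in control cultures, near the lowest values on the arrays. The his3Δ1 allele removes a part of its gene, and where the HIS3 probes lie against that part was not examined, so its signal checks nothing. A diploid of both mating types represses the a-specific, alpha-specific and haploid-specific genes. Of 20 such genes, 19 lay below the 25th percentile of mean signal, among them FUS3, FAR1, STE18 and MF(ALPHA)2, and RME1 was the exception at the 50th percentile. The 18S ribosomal RNA, read by a 3′ and a 5′ control probe set, differed between the dates more than between the groups. Its 3′ minus 5′ signal was -2.08 and -2.58 on the earlier and -1.12 and -1.54 on the later China8 arrays, against -2.67 and -2.85 on the earlier and -1.49 and -1.42 on the later control arrays. Its part in the results below was not tested. Values within each date are given for some of the lists and genes whose dates differed. Lists without such values can differ between dates too, as the falls of nitrogen catabolism did (medians -1.16 earlier, -0.36 later).

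**Figure D1:**
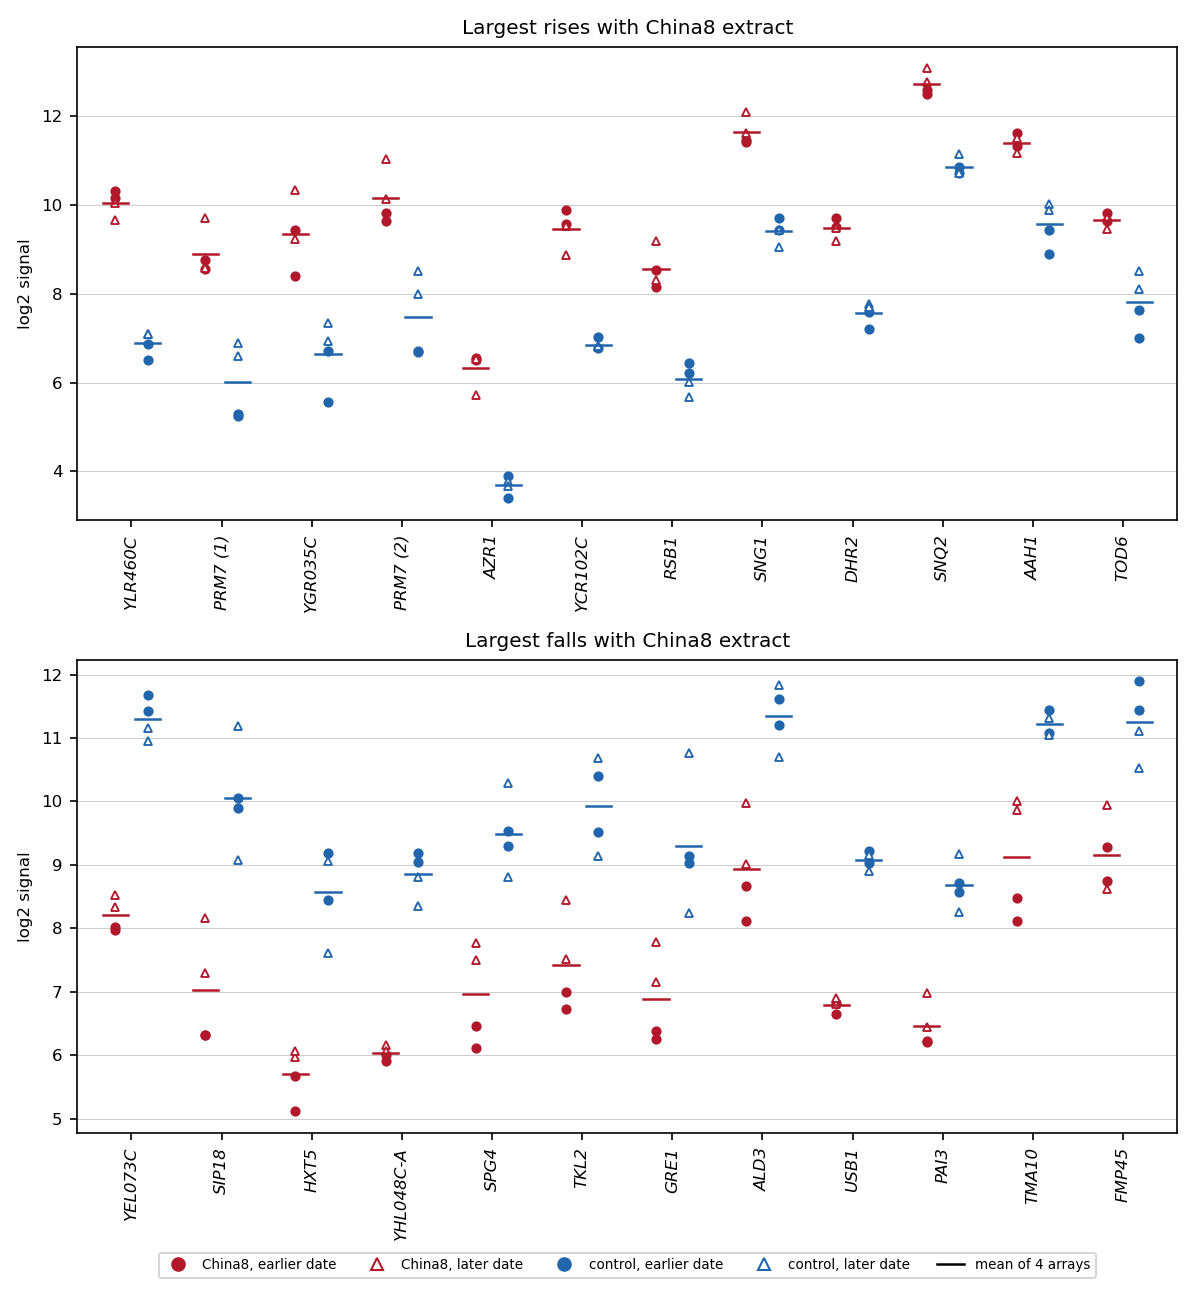
Log2 signal of the 12 probe sets with the largest rises (upper panel) and the 12 with the largest falls (lower panel) among those called with no overlap between groups. Each point is 1 array, China8 to the left of control, filled circles for the earlier and open triangles for the later date, and bars are means of 4 arrays. PRM7 is read by 2 probe sets. YLR460C averaged 10.04 with China8 and 6.89 in control, and YEL073C averaged 8.22 with China8 and 11.30 in control.

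Genes of drug export and reduction were among the largest rises, beside PRM7, YGR035C, DHR2, AAH1 and TOD6, which are described further on. YLR460C, an uncharacterized member of the zinc-type alcohol dehydrogenase-like family, had signals of 10.16, 10.30, 10.04 and 9.66 in China8 cultures, against 6.51, 6.86, 7.10 and 7.10 in control cultures. This is an 8.86-fold rise (log2 difference 3.15, SE 0.18, limma adjusted p = 0.000162), and the groups were over 2 log2 units apart. Its relative YCR102C had 9.56, 9.89, 9.53 and 8.87 in China8 cultures, against 6.77, 7.02, 6.81 and 6.82 in control cultures (6.10-fold, adjusted p = 0.000186). AZR1, a facilitator-type exporter that confers azole resistance, had 6.51, 6.55, 6.54 and 5.72 in China8 cultures, against 3.40, 3.89, 3.79 and 3.67 in control cultures. The control values of AZR1 are near the bottom of the scale, and China8 array 4 lies apart from the other 3 while staying above every control array. RSB1, a transporter-like protein tied to the release of sphingoid long-chain bases, had 8.14, 8.53, 9.19 and 8.31 in China8 cultures, against 6.44, 6.20, 5.67 and 6.002 in control cultures (5.52-fold). SNG1, whose product protects against nitrosoguanidine at the membrane, rose by 2.24 (SE 0.18), and SNQ2, an ABC pump for many drugs, rose by 1.87 (SE 0.12). SNQ2 was already abundant, with 12.57, 12.48, 13.06 and 12.77 in China8 cultures and 10.85, 10.71, 10.71 and 11.13 in control cultures.

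Of 42 probe sets for drug and organic ion transport and its regulators, 16 rose and 4 fell, with a median difference of 0.16. Besides the members above, the ABC pump PDR5 rose by 1.26 (SE 0.13), its paralogue PDR15 by 1.43 (SE 0.22) and the polyamine transporter TPO1 by 1.24 (SE 0.14). CIS1, a small gene whose expression follows Pdr1 and Yrr1, rose by 1.40 (SE 0.19). PDR5 had 12.55, 12.46, 12.80 and 12.47 in China8 cultures, against 11.55, 11.41, 10.997 and 11.27 in control cultures. The vacuolar pump VMR1 went the other way, with 8.20, 7.77, 8.16 and 8.61 in China8 cultures and 9.17, 8.68, 8.93 and 9.35 in control cultures (log2 difference -0.85, SE 0.17). Of the regulators themselves, YRR1 rose by 0.77 (SE 0.10) and PDR3 by 0.47 (SE 0.11, adjusted p = 0.014, and 0.051 without China8 array 1). The PDR1 transcript had 9.73, 9.62, 9.82 and 9.79 in China8 cultures and 9.65, 9.64, 9.88 and 9.78 in control cultures, which overlap throughout (adjusted p = 0.97). With 1 array left out at a time, 14 to 18 probe sets rose and 1 to 3 fell, the falls numbering 1 or 2 without any single China8 array or without control array 2.

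Among 28 probe sets for oxidoreductases of xenobiotic response, 11 rose and 6 fell. That is 39.3% higher and 21.4% lower, against 17.9% and 18.2% over all probe sets tested. OYE2 and OYE3, the old yellow enzymes that reduce activated double bonds, rose by 1.03 (SE 0.07) and 1.31 (SE 0.11). OYE2 had 12.58, 12.48, 12.55 and 12.43 in China8 cultures, against 11.51, 11.47, 11.53 and 11.40 in control cultures, with an SD of 0.07 in China8 cultures and 0.06 in control cultures. GRE2, a methylglyoxal reductase, rose by 0.87 (SE 0.07), the cinnamyl alcohol dehydrogenase ADH6 by 0.57 (SE 0.07), and YLL056C, of unknown function, by 1.198 (SE 0.16). BDH1, the butanediol dehydrogenase, fell by 0.75 (SE 0.16). The 6 falls of this list numbered 2 or 3 without China8 array 1, 2 or 3 or without control array 2 or 4. The transcript of YAP1, a regulator of the response to oxidants, overlapped between groups, with 9.22, 9.04, 9.33 and 9.17 in China8 cultures and 9.15, 9.24, 9.23 and 9.14 in control cultures. Genes that detoxify peroxide were mostly lower or not called. Of 35 probe sets for peroxide, glutathione and thioredoxin, 11 fell and 3 rose, with falls of 1.45 for the peroxiredoxin TSA2 (SE 0.29), 1.24 for the catalase CTT1 (SE 0.21) and 1.08 for the glutathione peroxidase GPX1 (SE 0.14).

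PRM7, one of the pheromone-regulated membrane protein genes, rose at both of its probe sets, by 2.89 (SE 0.28) and 2.68 (SE 0.23). The first had 8.55, 8.76, 9.71 and 8.58 in China8 cultures, against 5.29, 5.25, 6.601 and 6.90 in control cultures. Both groups were higher on the later date, and the rise was 3.38 on the earlier and 2.40 on the later date. Of the whole list for pheromone response and mating, 34 probe sets, 9 rose and 2 fell (1 without control array 2 or 3 or China8 array 1 or 4), with a median of 0.05. That is 26.5% higher and 5.88% lower, against 17.9% and 18.2% over all probe sets tested. YGR035C, a gene of unknown function, had 8.39, 9.42, 10.33 and 9.23 in China8 cultures, against 5.56, 6.72, 7.34 and 6.94 in control cultures. The arrays with the same replicate number moved together here, and the difference was 2.77 on the earlier and 2.64 on the later date.

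**Figure D2:**
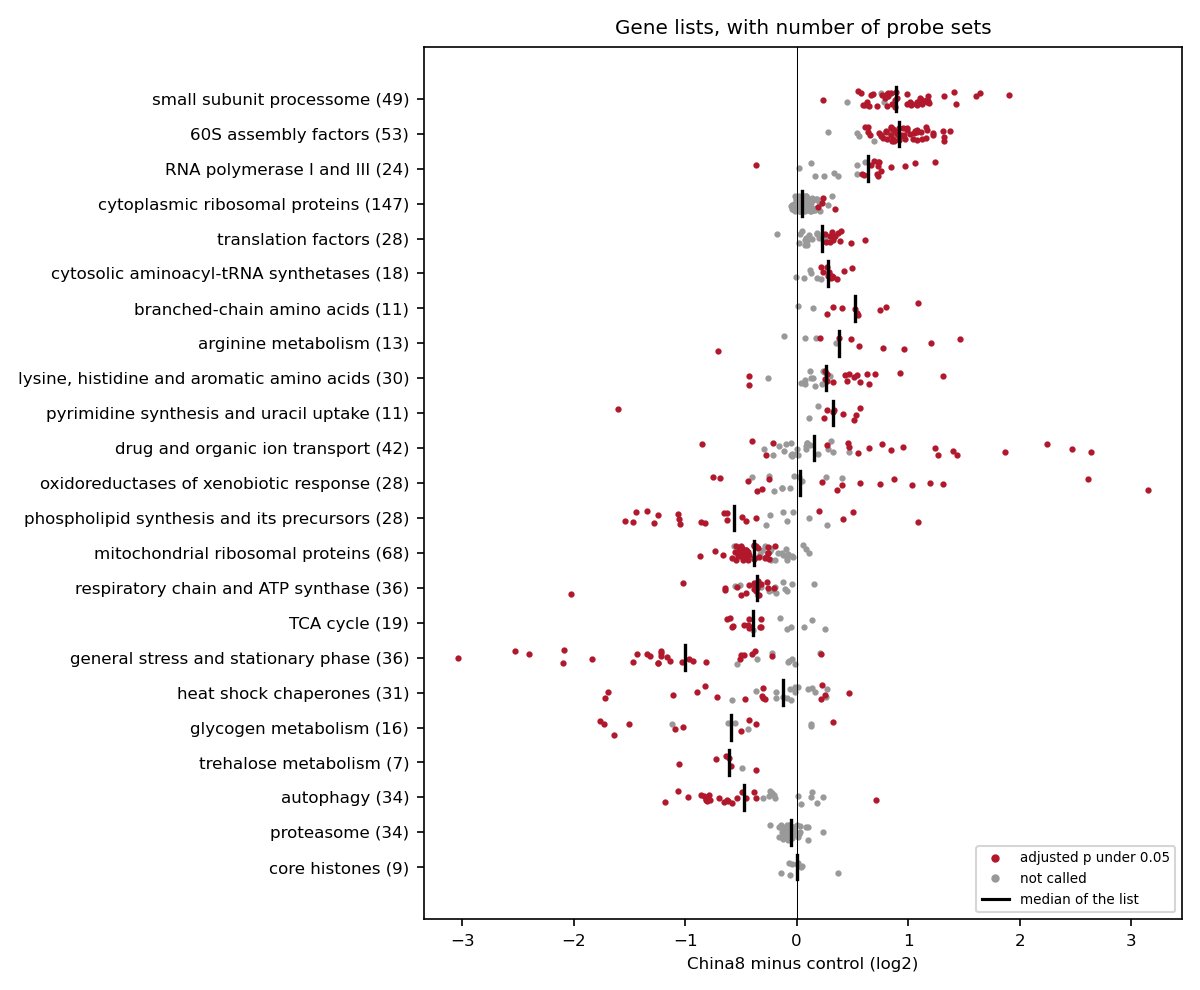
China8 minus control on the log2 scale for the probe sets of the gene lists named on the left, with the number of probe sets of each in brackets. Each point is 1 probe set, red where the adjusted p was under 0.05, and the vertical bar is the median of the list. The lists for the small subunit processome and for 60S assembly factors lie to the right of 0 with medians of 0.89 and 0.92, and the list for general stress and stationary phase lies to the left with a median of -0.998.

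The genes that build ribosomes rose almost as a body. Of the 49 probe sets for the small subunit processome, the particle that folds and cuts the precursor of 18S rRNA, 46 rose and 0 fell, and of the 53 for 60S assembly factors, 48 rose and 0 fell, against 17.9% higher and 18.2% lower over all probe sets tested. The medians were 0.89 and 0.92, against 0.00 over all probe sets. DHR2, an RNA helicase needed for 18S rRNA synthesis, had 9.50, 9.70, 9.47 and 9.19 in China8 cultures, against 7.21, 7.59, 7.76 and 7.69 in control cultures (3.74-fold, SE of the log2 difference 0.15). UTP23, a processome component, rose by 1.61 (SE 0.19), and UTP18 and MPP10, further components, by 1.17 (SE 0.12) and 1.02 (SE 0.09). Among the 60S factors, the export factor ARX1 rose by 1.33 (SE 0.13), the cytoplasmic maturation factor REI1 by 1.38 (SE 0.17), the helicases HAS1 and DRS1 by 1.32 (SE 0.12) and 1.31 (SE 0.12), and the nucleolar protein NSA1 by 1.13 (SE 0.08). NSA1 had 10.11, 10.11, 10.13 and 10.08 in China8 cultures, an SD of 0.02, against 8.86, 8.86, 9.01 and 9.20 in control cultures.

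The dates differed in the control cultures for these genes. Relative to the control mean, the median of the small subunit processome was 0.86, 1.05, 1.00 and 0.84 on the China8 arrays, against -0.44, -0.12, 0.28 and 0.25 on the control arrays. For the 60S assembly factors it was 0.85, 1.01, 0.99 and 0.88 on the China8 arrays, against -0.51, -0.11, 0.33 and 0.27 on the control arrays. The China8 arrays were thus alike on both dates, the control arrays of the later date were higher than those of the earlier, and the groups did not overlap on either list. All 46 and all 48 of the called members rose more on the earlier date than on the later, with medians of 1.21 and 1.27 on the earlier date and 0.62 and 0.63 on the later. LCP5, a processome member, was the extreme, with 9.45, 9.42, 9.34 and 9.43 in China8 cultures and 8.03, 8.10, 9.30 and 8.94 in control cultures. Its difference was 1.37 on the earlier and 0.26 on the later date. The unadjusted p of the date interaction was 0.000417, and its adjusted p was 0.29. The China8 difference of LCP5 over both dates was 0.82 (SE 0.21, adjusted p = 0.020), with an adjusted p of 0.067 without control array 2, 0.065 without China8 array 1 and 0.050 without China8 array 2. Within the later date alone, 31 of the 49 and 30 of the 53 probe sets were called higher, against 45 and 46 within the earlier date alone.

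The polymerases that transcribe ribosomal and transfer RNA rose less uniformly. Of 24 probe sets for RNA polymerase I and III, 14 rose and 1 fell (median 0.64), including RPA135, the second largest subunit of polymerase I, by 1.07 (SE 0.08), RPA43 by 1.24 (SE 0.11) and RPA190, its largest subunit, by 0.98 (SE 0.13). The single fall was that of MAF1, the repressor of polymerase III, by 0.37 (SE 0.09, adjusted p = 0.016, 0.055 without control array 2 and 0.058 without China8 array 1). TOD6, which binds the promoters of ribosome assembly genes as a repressor, rose too, with 9.63, 9.82, 9.71 and 9.46 in China8 cultures, against 7.01, 7.64, 8.11 and 8.52 in control cultures. Its difference was 2.40 on the earlier and 1.27 on the later date. The ribosomal proteins themselves did not follow in these values. Of 147 probe sets for cytoplasmic ribosomal proteins, 4 rose and 0 fell, with a median of 0.05 and a range of -0.05 to 0.34. The 4 calls numbered 0 to 10 when 1 array was left out. These transcripts lie near the top of the scale, with RPL13A at 13.43 to 13.55 in China8 cultures and 13.19 to 13.33 in control cultures. Translation factors (12 of 28 higher, 0 lower, median 0.23) and cytosolic aminoacyl-tRNA synthetases (12 of 18 higher, 0 lower, median 0.28) rose by less than 2-fold throughout. The largest were 0.62 (SE 0.08) for RPG1, a subunit of initiation factor 3, and 0.50 (SE 0.07) for the lysyl-tRNA synthetase KRS1. The counts of these 2 lists moved with single arrays, with 7 translation factors called without China8 array 1 or 3, and 4 or 5 synthetases without China8 array 1 or 3, 4 without control array 2 and 7 without control array 4. Within the earlier and the later date alone, 9 and 1 translation factors and 0 and 1 synthetases were called higher.

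Several lists of amino acid synthesis rose by smaller steps. The list for sulfate assimilation and methionine did not, with 5 of 35 probe sets higher and 6 lower (14.3% and 17.1%). Of 11 probe sets for branched-chain amino acids, 9 rose and 0 fell (median 0.52). LEU9, an isopropylmalate synthase, had 11.13, 10.99, 11.10 and 11.09 in China8 cultures, against 10.12, 9.84, 9.91 and 10.10 in control cultures (2.12-fold). ILV2, the acetolactate synthase, rose by 0.75 (SE 0.07), the isomerase LEU1 by 0.80 (SE 0.09) and the pathway's regulator LEU3 by 0.54 (SE 0.07). Of 13 probe sets for arginine metabolism, 8 rose and 1 fell, with ARG3, the ornithine carbamoyltransferase, at 1.46 (SE 0.17), CPA1, a subunit of carbamoyl phosphate synthetase, at 1.201 (SE 0.20), and ARG1, the argininosuccinate synthetase, at 0.97 (SE 0.07). The fall was that of CAR2, the ornithine transaminase of arginine breakdown, by 0.70 (SE 0.14). Of 30 probe sets for lysine, histidine and aromatic amino acids, 16 rose and 2 fell, and 10 rose without control array 2 or China8 array 3. The homocitrate synthase LYS20 led them with 12.26, 12.56, 12.47 and 12.51 in China8 cultures, against 10.94, 11.06, 10.91 and 11.65 in control cultures. The transcript of GCN4, the activator of these pathways that is governed mainly by translation, had 13.60 to 13.69 in China8 cultures and 13.45 to 13.61 in control cultures (adjusted p = 0.16).

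Uracil and adenine genes rose in part. Of 11 probe sets for pyrimidine synthesis and uracil uptake, 8 rose and 1 fell, among the rises FUI1, the uridine permease, by 0.57 (SE 0.11) and URA2, which catalyses the first steps, by 0.51 (SE 0.08). The count of rises was 4 or 5 without control array 1, 2 or 4 or without China8 array 1, 2 or 3. All 8 rises were larger on the earlier date, with medians of 0.53 on the earlier and 0.27 on the later, and 4 and 1 were called within each date alone. URA10, the minor orotate phosphoribosyltransferase, fell to 8.38, 8.50, 8.64 and 8.81 in China8 cultures, against 10.54, 10.25, 9.65 and 10.29 in control cultures. Of 24 probe sets for purine synthesis and one-carbon units, 6 rose, 0 fell and 18 were not called, with 4 to 14 rises when 1 array was left out (14 without control array 4). That is 25% higher and 0% lower, against 17.9% and 18.2% over all probe sets tested. AAH1, the adenine deaminase that is shut off when cells stop growing, had 11.31, 11.60, 11.51 and 11.17 in China8 cultures, against 8.90, 9.44, 10.01 and 9.89 in control cultures (3.58-fold). BAS1, an activator of purine genes, rose by 1.02 (SE 0.15), and GUA1 and IMD4 of guanine nucleotide synthesis each by 0.74 (SE 0.08 and 0.09). Among 17 amino acid permeases 4 rose and 4 fell (23.5% each way). Among 26 probe sets for nitrogen catabolism 3 rose and 5 fell (11.5% and 19.2%), with 1 rise without China8 array 1 and 8 falls without control array 3. Over all probe sets tested the shares were 17.9% higher and 18.2% lower, so neither list stood far from them. GAP1, the general amino acid permease, had 9.05, 8.58, 8.81 and 8.83 in China8 cultures, against 11.14, 10.69, 10.50 and 10.32 in control cultures (3.60-fold lower). The proline permease PUT4 fell by 1.53 (SE 0.23), the urea permease DUR3 by 1.45 (SE 0.19) and DAL3, an enzyme of allantoin breakdown, by 1.08 (SE 0.08), while TAT1, a permease for valine, leucine and tyrosine, rose by 0.76 (SE 0.11).

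**Figure D3:**
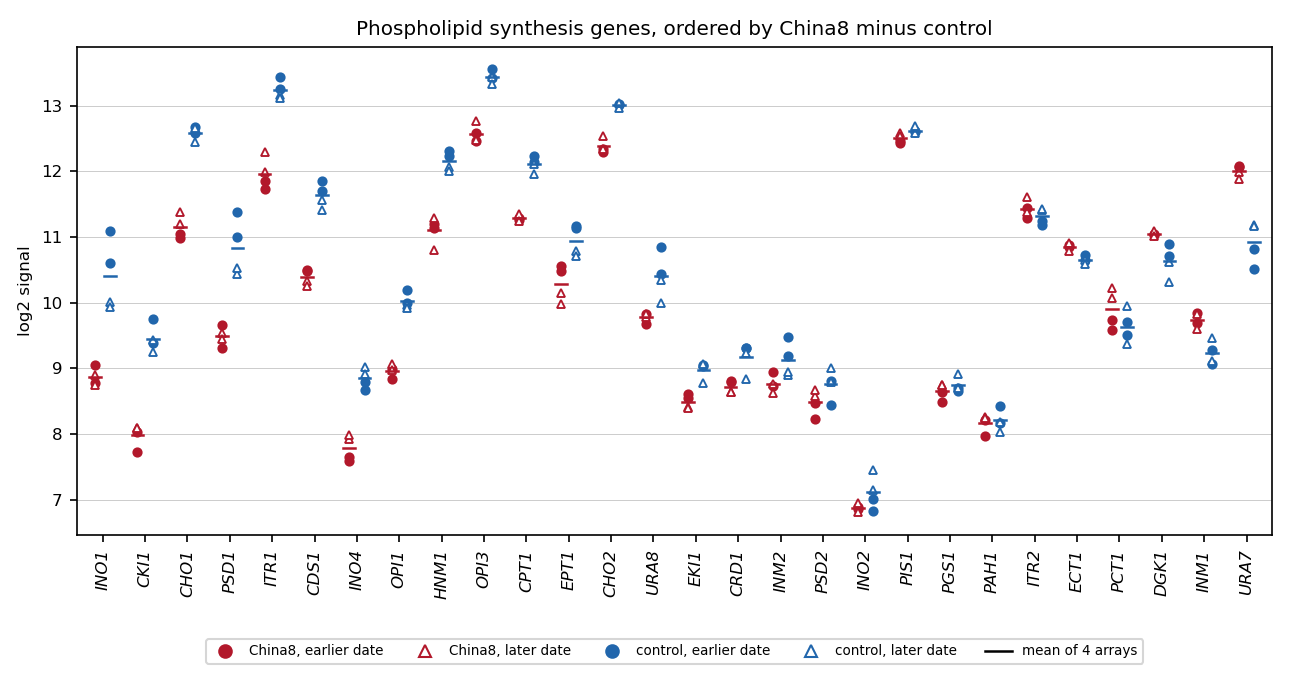
Log2 signal of the 28 genes for phospholipid synthesis and its precursors, ordered from the largest fall to the largest rise. Each point is 1 array, China8 to the left of control, filled circles for the earlier and open triangles for the later date, and bars are means of 4 arrays. INO1 averaged 8.87 with China8 and 10.41 in control, and URA7 averaged 12.004 with China8 and 10.92 in control.

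Phospholipid synthesis went down along most of its length. Of 28 probe sets, 17 fell and 4 rose (60.7% and 14.3%), with a median of -0.56. The study singled out many of these genes on the same arrays, so the list is not independent evidence of its direction. INO1, which makes inositol phosphate from glucose 6-phosphate, had 9.05, 8.78, 8.91 and 8.76 in China8 cultures, against 11.09, 10.60, 10.02 and 9.94 in control cultures. Its China8 values were alike on both dates, whereas its control values were higher on the earlier date, and the fall was 1.93 on the earlier and 1.15 on the later date. The inositol transporter ITR1 fell by 1.28 (SE 0.13), with 11.73 to 12.30 in China8 cultures and 13.12 to 13.44 in control cultures. Its relative ITR2 had 11.29 to 11.61 in China8 cultures and 11.19 to 11.42 in control cultures (difference 0.11, SE 0.08, adjusted p = 0.29). HNM1, the transporter of choline and ethanolamine, fell by 1.05 (SE 0.11).

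Along the branch from phosphatidic acid, CDS1, which makes CDP-diacylglycerol, had 10.50, 10.48, 10.33 and 10.25 in China8 cultures, against 11.70, 11.86, 11.56 and 11.41 in control cultures (2.36-fold lower, adjusted p = 0.000162). CHO1, the phosphatidylserine synthase, had 11.05, 10.98, 11.38 and 11.19 in China8 cultures, against 12.67, 12.58, 12.66 and 12.45 in control cultures. The mitochondrial decarboxylase PSD1 fell by 1.35 (SE 0.17) and the methyltransferases CHO2 and OPI3 by 0.63 (SE 0.07) and 0.86 (SE 0.09). The Golgi and vacuolar decarboxylase PSD2, with 8.23 to 8.68 in China8 cultures and 8.44 to 9.01 in control cultures, was not called (adjusted p = 0.077). In the branch that starts from free choline and ethanolamine, the choline kinase CKI1 fell by 1.47 (SE 0.13), the ethanolamine kinase EKI1 by 0.49 (SE 0.08), and the transferases CPT1 and EPT1 by 0.82 (SE 0.07) and 0.66 (SE 0.07). The CTP-using transferases of this branch did not fall, with PCT1 at 0.27 (SE 0.15, adjusted p = 0.18) and ECT1 at 0.20 (SE 0.06, adjusted p = 0.041, and between 0.056 and 0.13 in 7 of the 8 fits that left out 1 array). The cardiolipin synthase CRD1 fell by 0.45 (SE 0.09), and PGS1, which acts before it, had a difference of -0.09 (SE 0.07, adjusted p = 0.37). PIS1, the phosphatidylinositol synthase, had 12.46, 12.44, 12.58 and 12.53 in China8 cultures and 12.60, 12.61, 12.58 and 12.69 in control cultures. Its groups did not overlap before rounding, but the difference of -0.12 did not pass the test (SE 0.06, adjusted p = 0.16). The phosphatidate phosphatase PAH1 overlapped between groups (7.98 to 8.26 in China8 cultures, 8.04 to 8.43 in control cultures).

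The regulators of the pathway moved unequally. INO4 had 7.65, 7.59, 7.92 and 7.98 in China8 cultures, against 8.68, 8.79, 9.02 and 8.92 in control cultures, and its partner INO2 had 6.86, 6.88, 6.95 and 6.81 in China8 cultures, against 6.84, 7.02, 7.16 and 7.45 in control cultures. INO4 fell by 1.07 (SE 0.07), and INO2, with a difference of -0.24, was not called (SE 0.11, adjusted p = 0.12). The repressor OPI1 fell by 1.05 (SE 0.09). The 2 genes of CTP synthase moved in opposite directions. URA7, the major one, had 12.07, 12.08, 11.99 and 11.88 in China8 cultures, against 10.51, 10.82, 11.18 and 11.16 in control cultures, and URA8 had 9.83, 9.67, 9.78 and 9.82 in China8 cultures, against 10.85, 10.43, 9.99 and 10.35 in control cultures. The other rises were those of the inositol monophosphatase INM1 by 0.51 (SE 0.11), the diacylglycerol kinase DGK1 by 0.42 (SE 0.10, adjusted p = 0.016, and 0.053 without China8 array 3) and ECT1, while INM2, the second inositol monophosphatase, fell by 0.36 (SE 0.10). The 4 rises numbered 2 without China8 array 3. Other lipid lists did not share this pattern, with 2 higher and 2 lower of 16 for fatty acid synthesis, 8 higher and 2 lower of 25 for ergosterol synthesis and 4 higher and 2 lower of 23 for sphingolipid metabolism. In that order, the shares higher and lower were 12.5% and 12.5%, 32% and 8%, and 17.4% and 8.7%. Over all probe sets tested they were 17.9% and 18.2%. The ergosterol rises numbered 5 without control array 2 or China8 array 1 or 4, the sphingolipid falls 1 without control array 2 or China8 array 1, 2 or 4, and the fatty acid rises 1 without any single array other than control array 3. Among the sterol genes, the desaturase ERG3 rose by 0.74 (SE 0.10) and ERG28, which holds the demethylation complex together, fell by 0.71 (SE 0.08).

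Some genes outside the pathway that lie beside its members fell too. USB1, an exonuclease that trims U6 RNA, had the smallest p of all probe sets, with 6.66, 6.82, 6.81 and 6.91 in China8 cultures, against 9.03, 9.22, 9.16 and 8.91 in control cultures (4.86-fold lower, SE of the log2 difference 0.09, adjusted p = 4.68e-05). In the RefSeq annotation of assembly R64, USB1 and CKI1 are neighbours transcribed away from each other. The same arrangement joins OPI3 to MOG1, a nuclear transport factor that fell by 1.26 (SE 0.09), INO4 to YOL107W, an uncharacterized gene that fell by 1.26 (SE 0.12), and URA8 to VPS25, an ESCRT subunit that fell by 0.49 (SE 0.12). Of the 17 phospholipid genes that fell, 7 had a tested neighbour transcribed away from them, and 4 of these 7 neighbours fell and 0 rose. Over all genes that fell and had such a neighbour, 88 of 414 neighbours fell (21.3%). These neighbours were examined after the values were seen.

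YEL073C, of unknown function, showed the largest fall, with 7.98, 8.02, 8.53 and 8.34 in China8 cultures, against 11.67, 11.42, 11.16 and 10.95 in control cultures (8.48-fold lower). YHL048C-A, an uncharacterized short reading frame, had 6.01, 5.92, 6.17 and 6.07 in China8 cultures, against 9.05, 9.19, 8.81 and 8.35 in control cultures (7.02-fold lower). For both genes the China8 and control arrays were at least 2 log2 units apart, and the control arrays of the earlier date were the highest or among them. SPO11, which makes the double-strand breaks of meiosis, fell by 1.94 (SE 0.16), and RIM4, a meiotic translation repressor, by 1.43 (SE 0.13), while IME1, the inducer of meiosis, rose by 0.64 (SE 0.07). Of the 32 probe sets for meiosis and sporulation, 3 rose and 9 fell. That is 9.38% higher and 28.1% lower, against 17.9% and 18.2% over all probe sets tested. Such genes can lie in the dimmest part of the range, and the levels of the called members are not given here.

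Genes of the general stress and stationary phase programme fell widely. Of 36 probe sets, 27 fell and 1 rose, and the median was -0.998. With 1 array left out, 2 rises were called without control array 4 and 0 without any other single array. SIP18, a protein of drying tolerance, had 6.32, 6.32, 7.30 and 8.16 in China8 cultures, against 10.06, 9.90, 9.08 and 11.19 in control cultures (8.19-fold lower, SE of the log2 difference 0.46). SPG4 and GRE1, named for stationary phase growth and for induction by osmotic stress, had log2 differences of -2.53 (SE 0.35) and -2.40 (SE 0.48). The ribosome-associated protein TMA10 had 8.49, 8.12, 9.86 and 10.01 in China8 cultures, against 11.43, 11.08, 11.04 and 11.31 in control cultures, with a difference of -2.95 on the earlier and -1.24 on the later date. The spread of SIP18, SPG4 and GRE1 within the China8 group followed the dates, with both later arrays above both earlier ones. Of the 27 called falls, 25 were larger on the earlier date, with medians of -1.62 on the earlier and -0.80 on the later date, and within the later date alone 7 were called. The transcripts of MSN2 and MSN4, the activators of this programme, overlapped between groups, with MSN2 at 9.37 to 9.61 in China8 cultures and 9.41 to 9.72 in control cultures, and MSN4 at 10.20 to 10.75 in China8 cultures and 10.26 to 10.77 in control cultures.

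Genes of carbohydrate storage fell as well, mainly on the earlier date. Of 16 probe sets for glycogen metabolism, 9 fell and 1 rose, the rise being lost without control array 2 or 4 or China8 array 1 or 3. Of 7 for trehalose metabolism, 6 fell and 0 rose, a count of 2 or 3 without China8 array 1, 2 or 3 or control array 2. The called falls of the glycogen list had a median of -1.82 on the earlier and -0.64 on the later date, with 10 and 2 called within each date alone. Those of the trehalose list had medians of -0.996 and -0.26, with 4 and 1 called. The glycogen phosphorylase GPH1 had 10.29, 9.52, 11.13 and 11.58 in China8 cultures, against 12.61, 12.30, 12.12 and 12.40 in control cultures. PGM2, a phosphoglucomutase, fell by 1.09 (SE 0.17) and the trehalase ATH1 by 1.06 (SE 0.15). HXT5, the hexose transporter of slow-growing cells, had 5.67, 5.12, 5.97 and 6.07 in China8 cultures, against 9.19, 8.44, 7.62 and 9.07 in control cultures (7.31-fold lower). TKL2, the minor transketolase, fell by 2.51 (SE 0.42), and ALD3, a cytosolic aldehyde dehydrogenase, by 2.40 (SE 0.37). Of 31 probe sets for heat shock chaperones, 11 fell and 4 rose, the falls with a median of -0.97 on the earlier and -0.46 on the later date. HSP26, a small chaperone, had 9.63, 9.20, 9.27 and 10.14 in China8 cultures, against 11.51, 11.33, 10.59 and 11.69 in control cultures, and the Hsp70 SSA4 fell by 1.69 (SE 0.24). The 4 rises, none above 0.47, numbered 1 or 2 without any single China8 array or without control array 2. The proteinase A inhibitor PAI3, which lies beside SIP18 and is transcribed away from it, fell by 2.22 (SE 0.21), and the eisosome-associated FMP45 by 2.09 (SE 0.35).

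Many mitochondrial genes fell, most of them by less than 2-fold. Of 68 probe sets for mitochondrial ribosomal proteins, 45 fell and 0 rose, with a median of -0.38. RSM19, a small subunit protein, had 10.47, 10.58, 10.09 and 10.13 in China8 cultures, against 11.02, 11.14, 10.69 and 10.63 in control cultures, so that the groups were 0.55 apart on both dates even though their levels moved with the date (difference -0.56 on the earlier and -0.55 on the later date). Of 36 for the respiratory chain and ATP synthase, 23 fell and 0 rose (median -0.35), among them the Rieske protein RIP1 by 0.64 (SE 0.07) and the external NADH dehydrogenase NDE2 by 2.03 (SE 0.36). Of 19 for the TCA cycle, 12 fell and 0 rose (median -0.39), among them the succinate dehydrogenase subunit SDH4 by 0.60 (SE 0.08). The counts moved with single arrays. Without China8 array 1 or control array 2, 27 mitochondrial ribosomal proteins were called in each case, and 13 and 12 respiratory genes. Without China8 array 3, 15 respiratory and 7 TCA cycle genes were called. Within 1 date, 11 and 12 of the 68 ribosomal proteins were called on the earlier and the later date. CAT8, an activator of gluconeogenic genes, fell by 1.06 (SE 0.16). Autophagy genes fell as well, 20 of 34 with 1 rise (3 without control array 1, 0 without China8 array 2, 3 or 4) and a median of -0.47, led by ATG34 (-1.18, SE 0.11), ATG14 (-1.07, SE 0.14) and ATG8 (-0.82, SE 0.10), the ubiquitin-like protein of the autophagosome. The median difference between China8 and control was -0.05 over the 34 probe sets of the proteasome and 0.00 over the 9 of the core histones.

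Of 28 probe sets for iron uptake and sparing, 5 rose and 5 fell, which is 17.9% each way and near the 17.9% and 18.2% of all probe sets tested. The rises numbered 3 without control array 2 or China8 array 1 or 2, and the falls 3 without control array 2 or China8 array 3. FRE1, the surface reductase for iron and copper, had 10.03, 10.21, 9.39 and 9.10 in China8 cultures, against 8.23, 8.39, 8.25 and 8.07 in control cultures, and the scaffold ISU2 rose by 0.83 (SE 0.08). The multicopper oxidase FET3, by contrast, had 10.63, 10.53, 10.17 and 9.64 in China8 cultures, against 11.19, 11.18, 11.21 and 11.19 in control cultures, where the 4 arrays differed by 0.03. Its fall was 0.61 on the earlier and 1.29 on the later date, and its partner FTR1 fell by 0.43 (SE 0.08). The copper transporter CTR1 rose by 1.04 (SE 0.09), and the copper-binding metallothionein CRS5 fell by 1.42 (SE 0.16). SAM2, which makes S-adenosylmethionine, fell by 0.99 (SE 0.09), one of 6 falls and 5 rises among 35 probe sets for sulfate assimilation and methionine. These are 17.1% and 14.3%, near the shares over all probe sets tested.

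**Figure D4:**
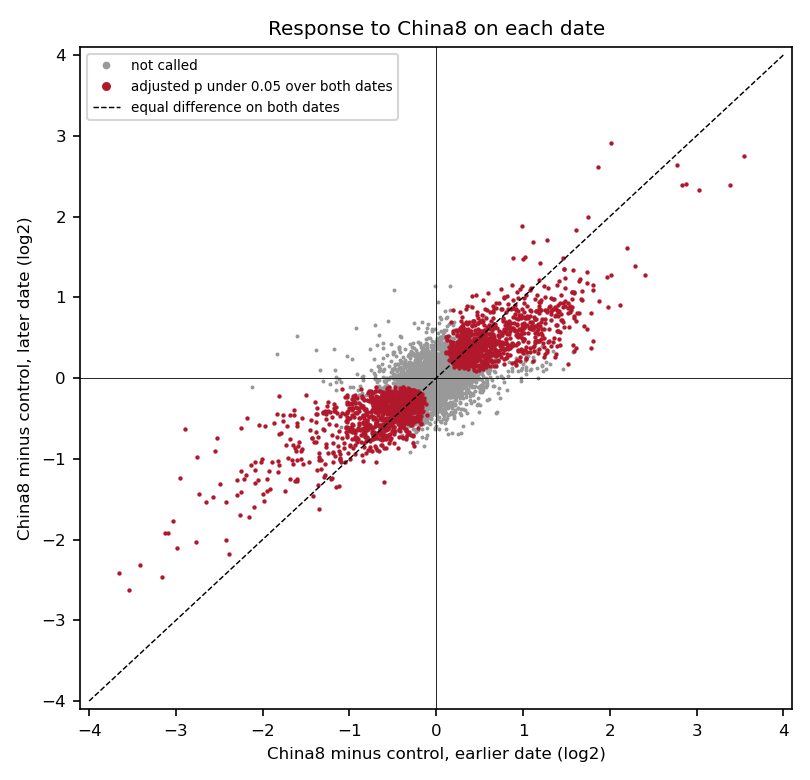
China8 minus control on the earlier date (x axis) against the later date (y axis), both log2, 1 point per probe set and 2 arrays per group and date. Red points were called over both dates. The 2082 called probe sets have the same sign on both dates, which calling them over both dates favours. Most of those with the largest differences lie between the x axis and the dashed line of equal differences.

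The 2 dates share no array, so the differences within each can be set beside each other. Within the earlier date alone 1101 probe sets (19.1%) were called, and 1069 of these (97.1%) had the same direction on the later date, 817 of them at an unadjusted p under 0.05 there. Within the later date alone 725 (12.6%) were called, and 710 of these (97.9%) had the same direction on the earlier date. On both dates 451 were called, all in the same direction. Across the 5763 probe sets, which are not independent replicates, the 2 sets of differences had a Pearson r of 0.784 and a Spearman rho of 0.715. The differences were larger on the earlier date, with an SD of 0.55 on the earlier and 0.40 on the later. Of the probe sets that rose over 2-fold, 103 of 121 rose more on the earlier date, and of those that fell over 2-fold, 117 of 123 fell more on it. Drug transport was less one-sided, since 11 of its 16 rises were larger on the later date, with RSB1 at 2.01 on the earlier and 2.92 on the later, PDR15 at 0.98 and 1.89, and SNG1 at 1.87 and 2.61.

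A difference between the dates could not be called for any single gene. The interaction of treatment and date passed an adjusted p of 0.05 for 0 probe sets (limma) and an unadjusted p of 0.05 for 623 (10.8%), and without control array 2 it passed the adjusted threshold for 30. Among called probe sets with a gene name, the smallest unadjusted p values belonged to TMA10 (later minus earlier 1.71, SE 0.25), MHO1, LCP5 and YGL258W-A. MHO1, the yeast relative of the human MEMO1 protein, had 9.23, 9.24, 10.02 and 9.89 in China8 cultures, against 11.65, 11.65, 11.43 and 11.56 in control cultures, and the uncharacterized YGL258W-A had 4.95, 4.86, 5.15 and 5.00 in China8 cultures, against 6.27, 6.03, 5.42 and 5.33 in control cultures. For TMA10 and MHO1 the China8 cultures differed between dates, and for LCP5 and YGL258W-A the control cultures did.

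**Figure D5:**
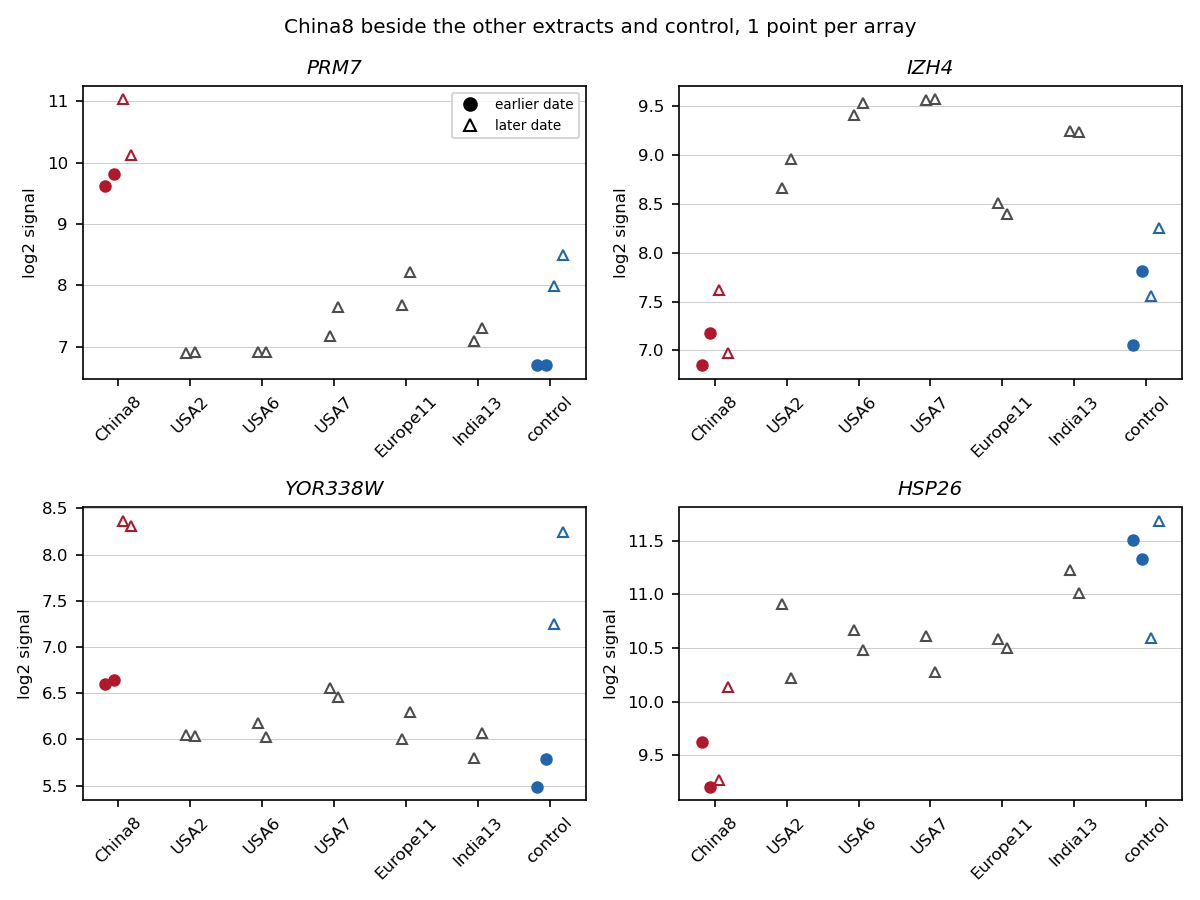
Log2 signal of PRM7 (the probe set with the higher signal), IZH4, YOR338W and HSP26 on all 18 arrays, 1 point per array, with China8 at the left, the other 5 extracts next and control at the right. Filled circles are of the earlier and open triangles of the later date. PRM7 lay at 9.63 to 11.03 with China8 and at 6.89 to 8.22 with the other extracts, and IZH4 at 6.85 to 7.61 with China8 and at 8.39 to 9.57 with the other extracts.

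Whether China8 differed from the other extracts was examined in a fit of all 18 arrays with the date as a block, China8 against the mean of the other 5. China8 was higher for 1316 probe sets (22.8%) and lower for 1401 (24.3%), over 2-fold for 50 and 20. The arrays of the other extracts carry the later date, and their 18S rRNA 3′ minus 5′ signal was -2.57 ± 0.17 (SD, n = 10), against -1.39 ± 0.19 (SD, n = 4) on the China8 and control arrays of that date and -2.55 ± 0.33 (SD, n = 4) on those of the earlier date. The part of this split in the comparison was not tested, so each value below is also given with the China8 and control arrays of the later date left out, a setting chosen after the data were seen. It has no date term and sets the 2 earlier China8 arrays against the 10 others, all of the later date. Extract and date therefore cannot be told apart in it. This setting called 565 higher (9.80%) and 661 lower (11.5%).

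PRM7 stood farthest apart, with 9.63, 9.82, 11.03 and 10.12 in China8 cultures and 6.89 to 8.22 on the 10 arrays of the other extracts. Its difference was 3.48 (SE 0.20, adjusted p = 9.14e-07), and 2.45 (SE 0.14) with the earlier China8 arrays alone. The second probe set gave 3.40 (SE 0.24) and 2.65 (SE 0.15). IZH4, a membrane protein of the family tied to zinc and sterol metabolism, had 6.85, 7.18, 7.61 and 6.98 in China8 cultures, against 8.39 to 9.57 with the other extracts, while the control cultures had 7.05, 7.81, 7.56 and 8.25. Its difference was -1.76 (SE 0.18), and -2.09 (SE 0.16) with the earlier China8 arrays alone. The next genes on the higher side had smaller differences without the later arrays. YOR338W had 6.59, 6.65, 8.37 and 8.31 in China8 cultures, 5.79 to 6.55 with the other extracts, and 5.49, 5.79, 7.25 and 8.25 in control cultures, so that its later-date values were high in China8 and control alike. Its difference was 2.29 with all arrays and 0.47 (SE 0.10) with the earlier China8 arrays. RGS2, a negative regulator of glucose signalling through a G protein, had differences of 1.61 and 0.42, SLK19, a kinetochore protein, of 1.77 and 1.36, and RRP14, a ribosome assembly protein, of 1.66 and 1.04. On the lower side HSP26 (-1.09 and -1.23), the biotin synthase BIO2 (-1.04 and -0.92), the mitochondrial AIM19 (-1.05 and -0.81) and TIS11, which degrades messages of iron-using proteins (-1.03 and -0.79), passed the test under both settings, and YDL241W (-1.02 and -0.39) did not pass with the earlier arrays alone (adjusted p = 0.068).

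Among the lists, ribosome assembly was higher with China8 than with the other extracts. The counts here are to be read against the shares over all probe sets in this comparison. These were 22.8% higher and 24.3% lower with all arrays, and 9.80% and 11.5% with the earlier China8 arrays alone. Of the 49 processome probe sets 41 were higher and 0 lower (median 0.61), and 37 with the earlier China8 arrays alone (median 0.51), and of the 53 60S assembly factors 47 were higher (median 0.68), and 41 with the earlier arrays alone (median 0.53). The general stress list was 3 higher and 11 lower of 36 with all arrays, and 0 and 25 with the earlier arrays alone. Mitochondrial ribosomal proteins were 6 higher and 30 lower of 68, and 1 and 22 with the earlier arrays alone, and the biotin and NAD synthesis genes 0 higher and 12 lower of 14, and 0 and 8. Other lists kept few of their calls with the earlier arrays alone. The cytosolic aminoacyl-tRNA synthetases went from 13 higher and 0 lower of 18 to 1 and 0. Purine synthesis went from 15 higher and 4 lower of 24 to 5 and 0, and thiamine synthesis and uptake from 2 and 7 of 14 to 0 and 2. Not all lists are given here. The phospholipid genes split evenly, 9 higher and 10 lower of 28 (median 0.00), and 2 and 3 with the earlier arrays alone. Within them INO1 was higher with China8 than with the other extracts by 0.55 (SE 0.15), and by 0.83 with the earlier arrays alone. CHO1 differed by -0.07 (SE 0.08, adjusted p = 0.55), and by -0.25 with the earlier arrays alone (adjusted p = 0.041).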

How the data were processed

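RNA of 8 cultures (4 China8, 4 control) was labelled by 3′ in vitro transcription and hybridized to Affymetrix Yeast Genome 2.0 arrays. The authors deposited log2 signals after RMA, that is, background correction, quantile normalization and summarization of probes. RMA and limma appear in the submitters' processing notes, with no version. Quantile normalization gives every array the same distribution, so a shift of most transcripts in one direction would not be seen. No read depth exists for arrays, and their number limits the precision, with a median SE of 0.096.

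From the deposited values, 5763 probe sets were fitted with limma 3.58.1 (R 4.3.3) with treatment and date as terms, lmFit and eBayes, and Benjamini-Hochberg adjustment over all of them. No filter on low values was applied. Of these probe sets, 5498 carry 1 gene name and 265 none, 12 names were updated through the RefSeq table of assembly R64, and 153 can bind several transcripts. A further fit took all 18 arrays with 7 groups and the date. Array pairs sharing a replicate number within a date deviated together to unequal degrees. Over numbers 1 to 4 the correlations of deviations from the group means, which also hold the date, were 0.37, 0.70, 0.13 and 0.41. Within a date, the differences between the 2 arrays of each group correlated at 0.75 on the earlier and 0.18 on the later date. The values reported come from the fit without pairing, and a replicate block that pairs the arrays was run as an alternative. The script was checked on simulated data. Alternatives changed the date term, the arrays, the normalization, dim probe sets, eBayes and the replicate block. Named genes were taken from the 12 largest changes in each direction among called probe sets without overlap, up to 5 called members per list with the smallest p, the whole phospholipid list, a set of regulators, the 6 largest differences from the other extracts in each direction, the 4 strongest date interactions and the strain and mating-type genes. The divergent neighbours and a few list members were picked after their values were seen. The members and the 55 lists were chosen with earlier results of these data known. Promoter and protein sequences were not used here.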

Additional observations from a re-analysis of the deposited data

Results flagged for a closer look

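Of 284 groups of 4 arrays examined for the named probe sets, 11 held 1 array far from the other 3, and chance flags about 1 in 20 such groups. Among the China8 groups, AZR1 was low at 5.72 on the fourth array, PAH1 was low at 7.98 and PUT4 low at 4.44 on the second, and DUR3 was high at 7.89 on the third. Among the control groups, TPO1 was high at 11.55 and OYE3 high at 6.58 on the first array, where TAT1 was low at 10.30. FET3 was high at 11.21 on the third control array, in a group that spans 0.03. On the fourth control array EKI1 was low at 8.78, CRD1 low at 8.84 and PGS1 high at 8.92.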

How the results depend on the processing

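All 130 named and called probe sets kept their direction under every alternative that tested them. They were picked as called on these same arrays, so a change of direction was unlikely from the start. The calls of the counts moved more. Within the earlier date alone 562 probe sets were called higher and 539 lower, within the later date alone 404 and 321, and by Bonferroni adjustment 66 and 42. With 1 array left out at a time, 680 to 1174 were called higher and 670 to 1124 lower, the lowest without the first China8 array (680 and 670), followed by the second control array (694 and 692). The date interaction was called for 0 to 30 probe sets when 1 array was left out, with 30 without the second control array. With the replicate block, which pairs the arrays, 2275 probe sets were called, 2001 of them among the 2082, and no named call was lost. Of the 130 named calls, 120 held within the earlier date alone, 97 within the later date alone and 43 by Bonferroni adjustment. With 1 array left out, the fewest held without the first China8 array (123). Equal array medians gave 2110 calls, 43.9% of them higher, against 49.7% in the values reported. Against the other 5 extracts, leaving out the China8 and control arrays of the later date gave 565 higher and 661 lower calls. Extract and date cannot be told apart in that fit. Of genes not called, PDR1 changed sign to -0.0278 on the later date, -0.0288 with equal medians and -0.0222 with repeated quantile normalization, and ranged from -0.0255 to 0.0302 with 1 array left out. YAP1 was -0.0638 on the earlier date, -0.0319 with equal medians and -0.0301 with repeated quantile normalization, and ranged from -0.0434 to 0.0496. On the later date PAH1 was 0.139, MSN2 0.106 and MSN4 0.257, and with 1 array left out PAH1 ranged from -0.0953 to 0.0556, MSN2 from -0.0683 to 0.0552 and MSN4 from -0.215 to 0.0556. The cause of these moves was not tested. A single preparation, dose and time limits the values, as does the normalization to equal distributions.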
